A study of Mus musculus with 9 samples.

Results

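RNA of the Syndecan-2- fraction of a mouse bone marrow stem cell gate was set against RNA of the whole gate, called Parent, to measure what the gate loses when cells carrying the surface proteoglycan Syndecan-2 are left out. Of the 9 libraries in the study, 6 enter this comparison, 3 Syndecan-2- and 3 Parent, chosen by the sorted population in their labels. The other 3 are of the Syndecan-2+ fraction, and their values stand beside those of the comparison where they help. All 3 populations came from femurs and tibias of untreated C57BL/6J mice aged 10 weeks and shared the gate KSL CD34- (c-Kit+, Sca-1+, Lineage-, CD34-), and 10000 cells were sorted into each library. The Syndecan-2- cells lacked Syndecan-2 staining within that gate, whereas Parent cells were sorted without regard to it and so hold both fractions. The extraction protocol speaks of male animals, while the series text speaks of both sexes. Over all 9 libraries Xist, the RNA of the inactive X chromosome, was at 0.121 to 0.621 CPM and Ddx3y, a gene of the Y chromosome, at 25.8 to 31.3 CPM. Whether replicates came from separate or pooled animals is not given, so p-values reflect the spread among these libraries alone, and that spread may be technical. Replicate numbers 1 to 3 were taken as pairs.

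Syndecan-2 is a transmembrane core protein whose heparan sulfate chains bind growth factors, chemokines and matrix proteins. Long-term hematopoietic stem cells sit at the top of the blood hierarchy, divide rarely, and express genes such as Vwf, Mecom, Fgd5 and Procr. Multipotent progenitors next to them gain Flt3, and those primed for lymphoid fates also express Dntt and Satb1.

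Values are CPM, reads scaled to a common library total, summed over the listed transcripts of a gene and rescaled between libraries by trimmed means (TMM), unless deposited CPM is named. Differences are log2 of CPM plus 1, Syndecan-2- minus Parent, with the standard error (SE), and a gene is said to rise or fall where limma gave a Benjamini-Hochberg (BH) adjusted p under 0.05 over 13997 genes. By the smallest common step between values, 1 CPM stood for 15.5 to 19.7 reads in these 6 libraries, and 3 reads equal 0.152 to 0.194 CPM, so that values below this rest on fewer than 3 reads. These floors cover counting error only. Each library had 12988 to 13354 genes at 1 CPM or more. In such bulk samples fewer cells of a type and less RNA per cell cannot be told apart.

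The sort gene was measured first. Sdc2 (ENSMUSG00000022261, chr15:32920723-33034730 of GRCm38, plus strand) stood at 0.477, 0.203 and 0.316 deposited CPM in the Syndecan-2- libraries, against 1.81, 2.00 and 1.43 deposited CPM in the Parent libraries. All Syndecan-2- values lay below all Parent values, and the Syndecan-2- mean was 19% of the Parent mean. The difference of -1.41 CPM had an exact two-sided permutation p of 0.1, the smallest that 3 against 3 libraries can give. In limma Sdc2 fell by 1.03 (SE 0.19, adjusted p = 0.00269), and with replicate 2 of all 3 populations left out, an alternative chosen after seeing the data, its adjusted p was 0.0529. The gate markers were also read. Kit was at 163 to 180 CPM in Syndecan-2- and 181 to 212 CPM in Parent libraries, whereas Ly6a, which encodes Sca-1, was at 4.80 to 6.97 CPM in Syndecan-2- and 4.36 to 5.88 CPM in Parent libraries. Cd34 transcript was present at 200 to 225 CPM in Syndecan-2- and 167 to 178 CPM in Parent libraries although both gates exclude cells stained for CD34 protein.

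More genes fell than rose in the Syndecan-2- fraction. Of 13997 genes, 435 (3.11%) fell and 173 (1.24%) rose, 608 (4.34%) in all, while the median over all genes was 0.00 log2. Of the 13997, 648 passed the filter only by counting Syndecan-2+ libraries. Among the 13349 that passed within the 6 libraries compared, 412 fell and 173 rose. The falls were also larger, with a median of -0.65 and a range of -6.10 to -0.17, and 90 of them were at least 2-fold on the scale of CPM plus 1. The rises had a median of 0.35 and a range of 0.17 to 1.15, and 6 were at least 2-fold. Rises and falls are not on equal terms in this design. If Parent is a plain mixture of both fractions, its share of Syndecan-2- cells limits how far a gene can rise above Parent. A fall can go down to no transcript at all. The labels do not give that share, and its part in these counts and sizes was not tested. The difference had 1 sign in all 3 pairs for 602 of the 608 genes. Syndecan-2- and Parent values did not overlap for 396 of the genes that fell and 156 of those that rose. Over all genes tested they did not overlap for 18.3%, with 9.55% lower and 8.74% higher. On CPM as deposited, where the median of all genes shifted to -0.06, 613 genes fell and 72 rose. With each of the 9 libraries left out in turn, 202 of the 435 falls and 16 of the 173 rises kept their call each time. Without Syndecan-2- replicate 3 the counts were 291 and 48, the lowest of these 9 fits for both directions.

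**Figure D1:**
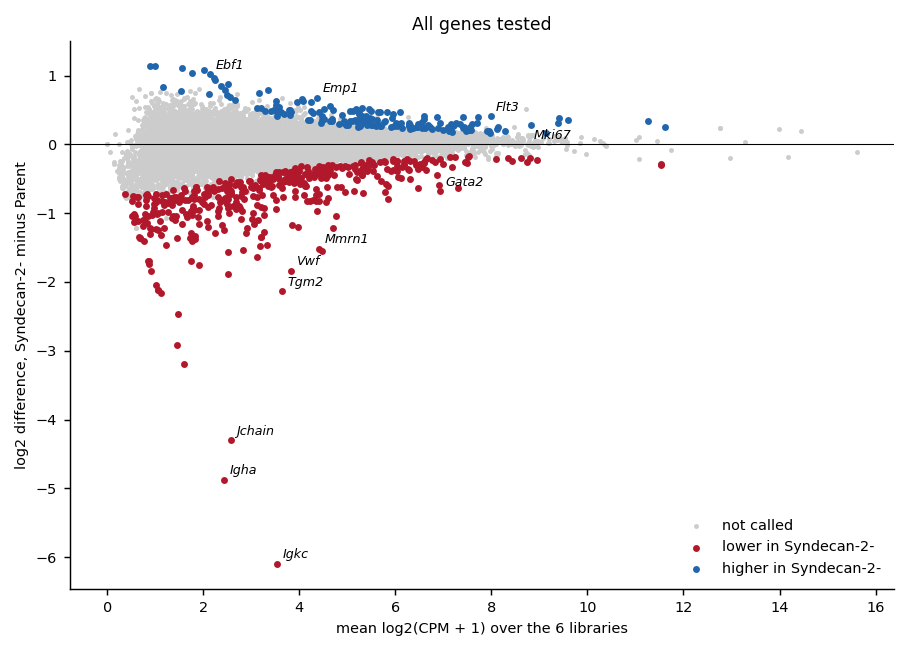
Each point is 1 of the 13997 genes, with its mean level over the 6 libraries as log2 of CPM plus 1 on the x axis and its log2 difference, Syndecan-2- minus Parent, on the y axis. Red marks the 435 genes that fell and blue the 173 that rose, and the falls reach -6.10 at Igkc where no rise passes 1.15.

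Most genes that fell were reduced rather than lost. Among the 435, 95 kept 75% or more of the Parent mean, 174 kept 50 to 75%, 108 kept 25 to 50%, 31 kept 10 to 25% and 27 kept under 10%. Of these 27, 19 were immunoglobulin genes or Jchain. Some of the 19 are V and J segments that passed the filter only by counting Syndecan-2+ libraries, so this count is a description. Outside the immunoglobulin genes and at a mean of at least 10 CPM, 238 genes fell and kept 19.6% (Tgm2) to 88.7% (Lmo2) of Parent, with a median of 72.5%. The 155 genes that rose at that level stood at 113% to 184% of Parent, with a median of 127%. By annotation 395 of the genes that fell and 148 of those that rose are protein coding.

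Immunoglobulin transcripts showed the deepest loss. Igkc, the kappa light chain constant region (ENSMUSG00000076609, chr6:70726435-70726966, plus strand), was listed at 0, 0.109 and 1.5 CPM in Syndecan-2- libraries, against 109, 79.8 and 98.6 CPM in Parent libraries. The Syndecan-2- mean was 0.558% of Parent (log2 -6.10, SE 0.20, adjusted p = 1.38e-14), and the Syndecan-2+ mean was 411 CPM. Igha, the constant region of IgA heavy chain, was listed at 0 in all 3 Syndecan-2- libraries, against 34.4, 31.4 and 21.0 CPM in Parent libraries (adjusted p = 1.38e-14). Jchain, which joins the monomers of secreted IgA and IgM, was at 0, 0.328 and 0.831 CPM in Syndecan-2- and 23.4, 22.8 and 30.8 CPM in Parent libraries (log2 -4.30, SE 0.14, adjusted p = 1.45e-14). For all 3 genes the Syndecan-2- and Parent values were far apart.

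The lambda constant genes Iglc2 and Iglc3 fell too, with Iglc2 listed at 0 in every Syndecan-2- library, against 1.45, 2.56 and 8.48 CPM in Parent libraries. Both lost their calls without the trend in the variance model (adjusted p = 0.159 for Iglc2 and 0.0726 for Iglc3) and with its robust form (0.284 and 0.155). Ighm, the constant region of IgM that early progenitors also transcribe, behaved otherwise in size. It was at 142, 120 and 116 CPM in Syndecan-2- libraries, against 182, 189 and 213 CPM in Parent libraries, so that 64.7% remained (log2 -0.63, SE 0.07, adjusted p = 8.87e-06). In all, 6 of the 8 tested constant region genes and Jchain fell and none rose, with 3 to 7 lower over all settings, of which the filter of 10 CPM tests fewer members of a list. All but 1 of the 8, Iglc1, passed the filter within the 6 libraries compared. Over all genes 3.11% fell. The summed level of the 8 tested members was 122 to 145 CPM in Syndecan-2- and 347 to 376 CPM in Parent libraries.

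Of 144 listed V, D and J segment genes, 40 were tested, but 31 of these passed the filter only by counting Syndecan-2+ libraries, and 2 were listed at 0 in all Syndecan-2- and Parent libraries, so no count of calls is given. The summed level of the 40 tested segments was 3.43 to 7.33 CPM in Syndecan-2- libraries and 261 to 350 CPM in Syndecan-2+ libraries, against 70.7 to 77.3 CPM in Parent libraries. Since most of the 40 were let in by their Syndecan-2+ values, the filter itself favours a high Syndecan-2+ sum, and these sums are a description. Ighv11-2, a heavy chain segment, was listed at 0 in all Syndecan-2- libraries and at 7.86, 6.70 and 5.30 CPM in Parent libraries. Near-identical segments share reads, so the split between single segments is uncertain.

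The markers of antibody-secreting plasma cells were low or not called. Of 11 tested plasma cell markers, limma called 0, and 3 had an unadjusted p under 0.05, against 2281 of all 13997 genes. The 11 include Prdm1, Mzb1 and Slamf7, which passed the filter only by counting Syndecan-2+ libraries. Their median was -0.06, and their summed level was 121 to 139 CPM in Syndecan-2- and 128 to 145 CPM in Parent libraries. Most of that sum comes from genes that many cells use, such as Txndc5, Xbp1 and Edem1. Some more specific markers were under 1 CPM in every Syndecan-2- and Parent library. Derl3, of protein disposal in secretory cells, was under the filter, at 0.160, 0.382 and 0.277 CPM in Syndecan-2- libraries, against 0.503, 0.602 and 0.588 CPM in Parent libraries, so that it was lower without overlap but not tested. Tnfrsf17, the plasma cell receptor BCMA, was under the filter too, at 0.0535, 0.109 and 0 CPM in Syndecan-2- and 0.315, 0.0602 and 0.118 CPM in Parent libraries, with overlap. Prdm1, the plasma cell regulator Blimp-1, averaged 0.656 CPM in Syndecan-2- and 0.661 CPM in Parent libraries. Mzb1 went the other way, at 0.6951, 0.9825 and 0.7201 CPM in Syndecan-2- and 0.629, 0.3614 and 0.6463 CPM in Parent libraries. It was higher without overlap but not called. The same held for Sdc1, a syndecan whose means are given below. Of the 11 tested markers, 8 had a difference below 0 and 3 above 0. The part of plasma cells in the immunoglobulin values was not tested.

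Beyond the antibody genes, the largest falls were in genes of diverse function. Tgm2, the protein cross-linking enzyme transglutaminase 2, was at 5.32, 4.47 and 4.99 CPM in Syndecan-2- libraries, against 22.4, 23.6 and 29.5 CPM in Parent libraries. It kept 19.6% of the Parent level (log2 -2.13, SE 0.09, adjusted p = 2.03e-12), with no overlap and a Syndecan-2+ mean of 74.8 CPM. Mtss1l, a regulator of actin at the membrane, was at 1.85, 1.53 and 2.66 CPM in Syndecan-2- and 10.4, 10.2 and 9.32 CPM in Parent libraries. Aldh1a1, a retinaldehyde dehydrogenase, kept 17.8% and Trim47, of the ubiquitin ligase family with tripartite motifs, kept 28.8% of Parent. Evc2, a part of the primary cilium, was listed at 0 in all Syndecan-2- libraries and at 1.64, 2.23 and 3.00 CPM in Parent libraries. Myom1, a protein of the muscle M band, kept 17.9%. The calls of Tgm2, Mtss1l, Aldh1a1, Trim47 and Myom1 held under each of the 24 other settings, and that of Evc2 held under the 23 in which it was tested, being too low for the filter of 10 CPM.

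Genes of long-term hematopoietic stem cells fell as a group. Of 38 tested members, 28 fell and none rose, with a median of -0.82. Over all genes 3.11% fell and 1.24% rose, with a median of 0.00. Of the 38, 33 passed the filter within the 6 libraries compared, and 27 of these fell. Without Sdc2 itself the count was 27 of 37 and the median -0.81. The medians of the 3 pairs were -0.79, -0.71 and -0.86, and over all settings 21 to 30 members fell. The summed level was 450 to 472 CPM in Syndecan-2- and 661 to 736 CPM in Parent libraries. The list was drawn up with earlier results of these libraries known and is no independent evidence of a direction.

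Among surface and adhesion proteins of these cells, Vwf, the platelet adhesion protein that also marks platelet-primed stem cells (ENSMUSG00000001930, chr6:125546774-125686679, plus strand), was at 7.43, 5.94 and 6.26 CPM in Syndecan-2- libraries, against 27.0, 25.7 and 24.9 CPM in Parent libraries. This left 25.3% of the Parent level (log2 -1.84, SE 0.08, adjusted p = 2.03e-12), with the values of each population close together. Tie1 and Tek, the angiopoietin receptor family, kept 41.6% and 55.0%. Procr, the endothelial protein C receptor, kept 49.5% (log2 -0.83, SE 0.14, adjusted p = 0.000950). Slamf1, the gene of the surface receptor CD150, was at 2.65 ± 0.347 CPM in Syndecan-2- and 4.08 ± 1.02 CPM in Parent libraries (SD, n = 3 each) and was not called (adjusted p = 0.164).

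Fgd5, an exchange factor for the GTPase Cdc42, was at 2.73, 3.17 and 3.71 CPM in Syndecan-2- libraries, against 11.3, 9.99 and 12.1 CPM in Parent libraries (log2 -1.53, SE 0.11, adjusted p = 1.88e-08). The transcription regulators differed in depth. Mecom, needed for stem cell maintenance in mice, was at 12.6, 15.0 and 13.7 CPM in Syndecan-2- and 27.2, 25.7 and 30.6 CPM in Parent libraries, so that 49.6% remained. Mllt3 kept 55.1%, Hlf 68.2% and Meis1 83.6%, and the call of Meis1 was lost without Syndecan-2- replicate 1 (adjusted p = 0.0714) or Parent replicate 1 (0.0771). Hoxa9 averaged 47.5 CPM in Syndecan-2- and 44.9 CPM in Parent libraries and was not called (adjusted p = 0.684). Tcf15 kept 19.9% and the calcium channel gene Trpc6 26.2% of Parent.

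**Figure D2:**
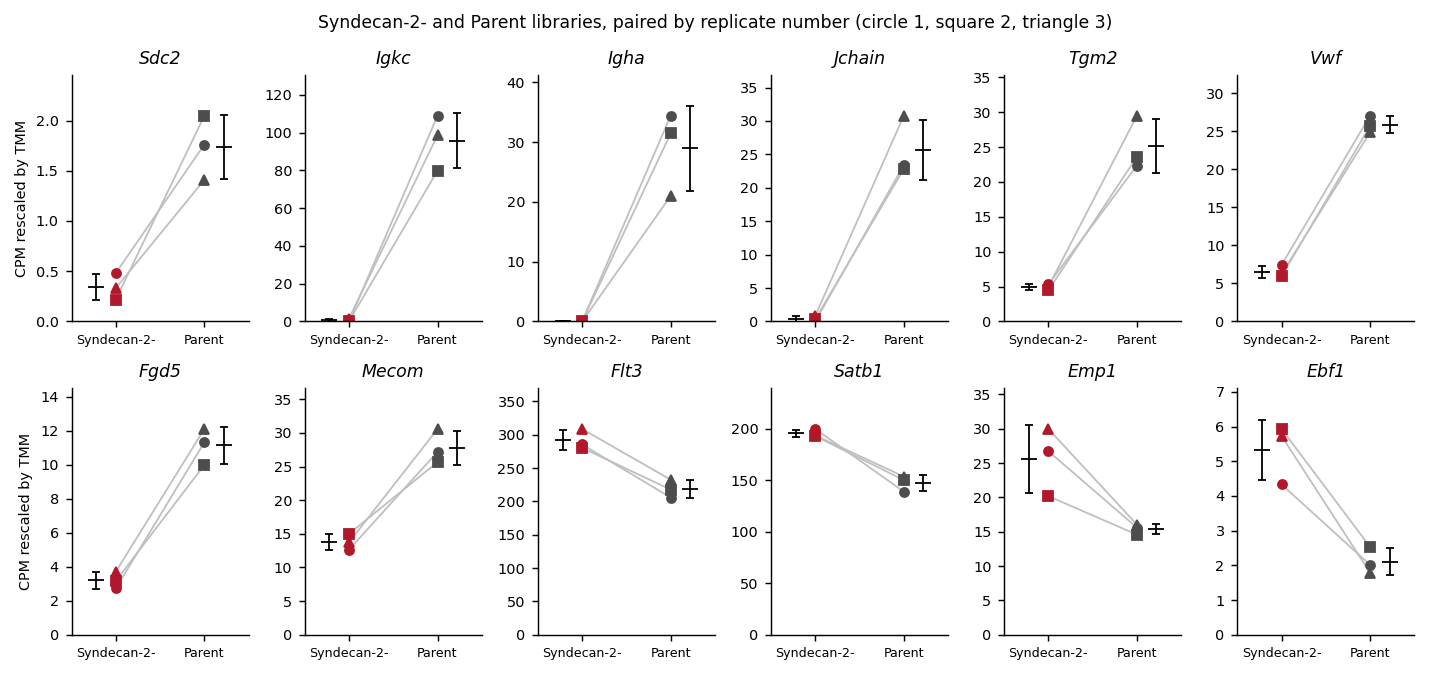
CPM rescaled by TMM (y axis, from 0) of 12 genes in each Syndecan-2- library (red, left) and Parent library (grey, right), with lines joining libraries of the same replicate number and black bars giving the mean and SD (n = 3). The first 8 genes fell and Flt3, Satb1, Emp1 and Ebf1 rose, and in none of the 12 do the populations overlap.

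Genes of the megakaryocyte and platelet lineage followed. Of 18 tested, 9 fell (6 to 9 over all settings) and none rose, with a median of -0.40, while 3.11% of all genes fell. All 9 were among the 17 that passed the filter within the 6 libraries compared. Itga2b, the integrin CD41, was at 41.2, 41.1 and 45.0 CPM in Syndecan-2- libraries, against 68.2, 69.0 and 69.9 CPM in Parent libraries (61.5% of Parent, log2 -0.69, SE 0.06, adjusted p = 1.29e-07). Zfpm1, the GATA cofactor FOG1, kept 66.1%. Pf4, platelet factor 4, was at 6.15, 4.58 and 4.43 CPM in Syndecan-2- and 13.1, 10.6 and 11.9 CPM in Parent libraries (log2 -1.09, SE 0.10, adjusted p = 6.10e-07). Other genes of platelet function, chosen after their values were seen, fell as well. Mmrn1, the platelet granule protein multimerin, was at 11.1, 12.7 and 11.1 CPM in Syndecan-2- libraries, against 38.2, 28.7 and 39.5 CPM in Parent libraries (log2 -1.52, SE 0.09, adjusted p = 1.28e-09). Ptgs1 and Tbxas1, which act in succession in thromboxane synthesis, kept 50.5% and 64.2%, and Rab27b, of granule secretion, kept 42.5%. Nfe2 averaged 57.3 CPM in Syndecan-2- and 61.5 CPM in Parent libraries and was not called.

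The promoter of Pf4 is shown because its window holds a match to the core letters of the GATA and of the ETS family of factors. Of these families Gata2, Gata3 and the ETS member Fli1 fell in the same libraries, the last with a fragile call, as described below. Gata1 and the ETS members Erg, Etv6 and Spi1 were tested too and not called. Whether these factors act on Pf4 was not tested. The sequence (RefSeq, GRCm38.p6, chr5:90772185-90772484, plus strand) covers 250 bases before and 50 after the listed start. Capitals mark AGATAA for the GATA family and CCGGAA for the ETS family, searched on both strands, and the ETS match lies on the minus strand.
Pf4: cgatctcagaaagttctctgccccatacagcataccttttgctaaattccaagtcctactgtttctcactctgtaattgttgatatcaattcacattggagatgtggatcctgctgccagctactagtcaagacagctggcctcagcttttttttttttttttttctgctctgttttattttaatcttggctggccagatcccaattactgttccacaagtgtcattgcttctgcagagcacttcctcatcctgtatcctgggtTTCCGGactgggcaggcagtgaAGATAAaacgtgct
Of 9051 tested genes with a promoter in the table, 6.25% hold AGATAA and 29.7% hold CCGGAA on either strand in windows of this length. The matches are letters in this window and no measure of binding.

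A pair of neighbouring genes also fell together. Col4a1 and Col4a2 encode the chains of type IV collagen of basement membranes and are transcribed in opposite directions from a shared start region on chromosome 8. Col4a1 was at 5.40, 4.91 and 7.20 CPM in Syndecan-2- libraries, against 13.1, 11.5 and 13.8 CPM in Parent libraries (log2 -1.02, SE 0.11, adjusted p = 1.79e-06). Col4a2 was at 4.49, 5.51 and 5.54 CPM in Syndecan-2- and 13.6, 12.9 and 15.2 CPM in Parent libraries (log2 -1.27, SE 0.11, adjusted p = 1.19e-07). No library overlapped for either gene, and both were chosen after their values were seen. Their promoter windows (RefSeq, GRCm38.p6; Col4a1 chr8:11312777-11313076, minus strand, and Col4a2 chr8:11312555-11312854, plus strand) share 78 bases, set in capitals and read from opposite strands.
Col4a1: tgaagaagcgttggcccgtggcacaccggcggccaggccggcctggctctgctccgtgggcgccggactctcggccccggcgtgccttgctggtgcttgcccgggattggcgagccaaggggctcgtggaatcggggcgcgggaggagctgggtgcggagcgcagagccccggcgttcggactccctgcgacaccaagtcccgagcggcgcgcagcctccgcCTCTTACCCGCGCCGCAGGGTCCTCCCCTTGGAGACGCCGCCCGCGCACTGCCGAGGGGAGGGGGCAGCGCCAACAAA
Col4a2: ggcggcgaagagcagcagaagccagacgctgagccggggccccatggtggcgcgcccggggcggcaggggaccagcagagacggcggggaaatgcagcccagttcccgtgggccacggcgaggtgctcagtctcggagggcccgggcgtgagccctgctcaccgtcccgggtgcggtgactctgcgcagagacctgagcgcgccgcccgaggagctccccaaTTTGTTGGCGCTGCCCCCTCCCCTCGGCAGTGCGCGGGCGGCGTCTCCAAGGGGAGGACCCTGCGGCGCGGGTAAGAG
The listed gene bodies overlap by the first bases of each, and the strand setting of the counting is not given in the sources used here, so reads there cannot be told apart between them.

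Some erythroid genes and blood transcription factors fell, and a few transcription factors rose. Of 13 tested erythroid genes, 10 passed the filter within the 6 libraries compared and 3 only by counting Syndecan-2+ libraries. Over all genes 3.11% fell. Of the 13, 4 fell (3 to 6 over all settings), all among the 10, and none rose (median -0.40). These were the carbonic anhydrases Car1 (55.7% of Parent) and Car2 (64.4%), the water channel Aqp1 (58.2%) and Ermap (54.0%), a membrane protein of red cells, whose adjusted p was 0.0789 without replicate 3 of all populations. Of 23 tested transcription factors, 7 fell and 2 rose, with a median of -0.02, while 3.11% of all genes fell and 1.24% rose. Gata2, required for stem cell survival in mice, was at 93.2, 89.8 and 104 CPM in Syndecan-2- libraries, against 146, 150 and 166 CPM in Parent libraries (log2 -0.68, SE 0.05, adjusted p = 2.56e-08). Gata3 kept 47.4%, Zbtb16 64.9%, Gfi1b 67.1%, Tal1 73.1%, the ETS family member Fli1 86.1% and Lmo2 88.7%.

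The smaller of these changes were fragile. Zbtb16 lost its call without replicate 3 of all populations (adjusted p = 0.0811). The calls of Gfi1b, Fli1 and Lmo2 were each lost when Syndecan-2- replicate 2 or 3 or Parent replicate 2 or 3 was left out (adjusted p = 0.0540 to 0.211), those of Fli1 and Lmo2 also without replicate 1 of either population (0.0516 to 0.140), and that of Lmo2 also without Syndecan-2+ replicate 1 or 2 (0.0536 and 0.0569). Ikzf1 and Lyl1 rose, each to 121% of Parent, and the call of Lyl1 was lost with any Syndecan-2- or Parent library left out (adjusted p = 0.0714 to 0.336). Runx1 averaged 128 CPM in Syndecan-2- and 124 CPM in Parent libraries and Erg 50.2 CPM in Syndecan-2- and 55.6 CPM in Parent libraries, and neither was called.

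Growth-control genes moved in part. Of 10 tested imprinted genes, 8 passed the filter within the 6 libraries compared and 2 only by counting Syndecan-2+ libraries. Of the 10, 4 fell (1 to 4 over all settings), all among the 8, and none rose (median -0.53). Over all genes 3.11% fell. Grb10, an adaptor that dampens receptor signalling, was at 5.55, 4.15 and 5.43 CPM in Syndecan-2- and 17.2, 13.6 and 16.2 CPM in Parent libraries (32.2% of Parent, log2 -1.46, SE 0.10, adjusted p = 2.46e-09). The noncoding RNA Meg3 kept 13.2% and Ndn, or necdin, 28.5%. Cdkn1c, the CDK inhibitor p57 that is linked to stem cell quiescence in mice, was at 0.695, 0.928 and 1.88 CPM in Syndecan-2- libraries, against 1.89, 2.59 and 4.11 CPM in Parent libraries. The highest Syndecan-2- value lay just below the lowest Parent value, and the adjusted p was 0.0198 (log2 -0.83, SE 0.20). It was 0.116 and 0.0742 without Syndecan-2- replicates 1 and 2, and 0.0848 and 0.157 without Parent replicates 2 and 3.

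Cycling genes did not pass the test in either direction. Of 35 DNA replication genes limma called 0, with 3 at an unadjusted p under 0.05 and a median of 0.04. Over all 13997 genes, 2281 had an unadjusted p under 0.05. Of 29 mitosis genes it called 0, with 5 at an unadjusted p under 0.05 and a median of -0.04. Mki67, a marker of cycling cells, averaged 433 ± 38.3 CPM in Syndecan-2- and 433 ± 17.5 CPM in Parent libraries (SD, n = 3 each, adjusted p = 0.994). Among 22 tested G1 control genes, Cdkn1c and Mycn fell, while 3.11% of all genes fell, and Mycn kept 64.3% of Parent.

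Progenitor genes stood on the other side, with smaller changes, under the limit on rises given above. Of 20 tested genes of multipotent and lymphoid-primed progenitors, 9 rose, 1 fell (Ighm), and the median was 0.34. Over all genes 1.24% rose and 3.11% fell. Over all settings 0 to 12 of them rose, while the median stayed between 0.26 and 0.40. Without the trend in the variance model 0 rose, and without the replicate block 4 rose. Flt3, the cytokine receptor of multipotent progenitors (ENSMUSG00000042817, chr5:147330741-147400489, minus strand), was at 285, 280 and 309 CPM in Syndecan-2- libraries, against 206, 218 and 233 CPM in Parent libraries. The Syndecan-2- mean was 133% of Parent with no overlap (log2 0.41, SE 0.08, adjusted p = 0.00330), and the adjusted p was 0.0744 without Syndecan-2- replicate 3. The call of Flt3 was also lost without the trend in the variance model (0.188) and with its robust form (0.0881). Satb1, a chromatin organizer of lymphoid priming, was at 200, 193 and 194 CPM in Syndecan-2- and 139, 150 and 154 CPM in Parent libraries (132%, log2 0.40, SE 0.06, adjusted p = 0.000423). Its call held with every library left out and was lost without the trend in the variance model (0.0963).

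Cd34 was at 213, 225 and 200 CPM in Syndecan-2- libraries, against 174, 178 and 167 CPM in Parent libraries (123%, log2 0.29, SE 0.06, adjusted p = 0.00582). The populations did not overlap, but the adjusted p was 0.0827 without Syndecan-2- replicate 3 and 0.0636 without Parent replicate 1. It was 0.0943 without the replicate block and 0.191 without the trend in the variance model. Mn1, a transcription coregulator, rose to 140% of Parent and Ikzf1, the lymphoid regulator Ikaros, to 121%, with an adjusted p of 0.0526 for Ikzf1 without replicate 1 of all populations. Notch1 rose to 131%, the surface glycoprotein gene Cd52 to 140% and Egfl7 to 132%. The adjusted p of each of these last 3 was above 0.05 without Syndecan-2- replicate 3 (0.231, 0.175 and 0.170) and without Parent replicate 2 (0.174, 0.188 and 0.0693). Those of Notch1, Cd52 and Egfl7 were also above it without Syndecan-2- replicate 1 (0.0566, 0.240 and 0.104) or Parent replicate 1 (0.126, 0.174 and 0.122), and that of Cd52 without replicate 2 of Syndecan-2- (0.0971) or replicate 3 of Parent (0.0946).

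Dntt, the terminal transferase of lymphoid priming, was at 514, 485 and 516 CPM in Syndecan-2- libraries, against 349, 347 and 365 CPM in Parent libraries. It stood at 143% of Parent with no overlap, yet missed the threshold (log2 0.51, SE 0.15, adjusted p = 0.0625). With the 6 libraries of the comparison fitted alone its adjusted p was 1.29e-05, and it passed in 8 of the 24 other settings. Cd48 was not called (16.5 CPM in Syndecan-2- and 13.7 CPM in Parent libraries, adjusted p = 0.336).

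Of 15 tested genes of myeloid-primed progenitors, 2 rose and none fell, with a median of 0.28, while 1.24% of all genes rose. Over all settings 0 to 5 of them rose, with 0 without the replicate block and 0 without the trend in the variance model. Irf8, a transcription factor of monocytes and dendritic cells, was at 83.1, 79.0 and 76.1 CPM in Syndecan-2- and 55.2, 60.6 and 55.4 CPM in Parent libraries (139%, adjusted p = 0.00418). Its adjusted p was 0.0671 and 0.0548 without Syndecan-2- replicates 1 and 3. It was 0.0545 without the replicate block and 0.161 without the trend in the variance model. Mpo, myeloperoxidase of neutrophil granules, had overlapping values (adjusted p = 0.0471), and its call was lost without Syndecan-2- replicate 1 or 3 or any Parent library (0.0550 to 0.340). The call of Mpo was also lost without the replicate block (0.564), with quantile normalization (0.336) and on CPM as deposited (0.145), and was kept in 9 of the 24 other settings. Receptors were mixed, with 4 of 22 lower and 2 higher, against 3.11% lower and 1.24% higher over all genes. Besides Flt3, Tgfbr3, the TGF-beta coreceptor betaglycan, kept 54.8%. Il6st, the shared signal chain gp130, stood at 127%, Igf1r at 84.5% and Kit at 87.8% of Parent. All 3 were lost as calls without Syndecan-2- replicate 1 (0.0690, 0.0785 and 0.144) and without Parent replicate 3 (0.136, 0.149 and 0.124). Il6st was also lost without Syndecan-2- replicate 2 (0.169) or Parent replicate 1 (0.0871), and Igf1r without Syndecan-2- replicate 3 (0.158) or Parent replicate 2 (0.110). Kit was also lost without Syndecan-2- replicate 3 (0.239), Parent replicate 1 or 2 (0.226 and 0.0664) or Syndecan-2+ replicate 2 (0.0556).

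Leaving out gene models and a pseudogene, 5 of which rose by more, the largest single rise was in a lowly expressed gene. Ebf1, a transcription factor of early B cells, was at 4.33, 5.93 and 5.72 CPM in Syndecan-2- libraries, against 2.01, 2.53 and 1.79 CPM in Parent libraries. It stood at 252% of Parent (log2 1.02, SE 0.21, adjusted p = 0.00605), and its adjusted p was 0.0519 and 0.0806 without Syndecan-2- replicates 2 and 3. Among 6 tested B lineage markers Bank1, a B cell scaffold protein, also rose (195%), with a call lost without Syndecan-2- replicate 1 or 3 or any Parent library (0.102 to 0.256), while 1.24% of all genes rose. Their summed level was 20.1 to 26.0 CPM in Syndecan-2- and 10.7 to 17.8 CPM in Parent libraries, while Cd79a, a chain of the B cell receptor complex chosen after its values were seen, was at 2.73, 2.24 and 0.609 CPM in Syndecan-2- and 0.881, 1.63 and 0.999 CPM in Parent libraries and was not called (adjusted p = 0.538). The part of B lineage cells in the rise of Ebf1 was not tested. Emp1, an epithelial membrane protein, was at 26.7, 20.2 and 30.0 CPM in Syndecan-2- and 15.6, 14.6 and 16.0 CPM in Parent libraries (166%, log2 0.68, SE 0.12, adjusted p = 0.00184), with 0.0581 without replicate 3 of all populations. Pyhin1, an interferon-inducible HIN-200 protein, rose to 163%, with a call kept in all 24 other settings.

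**Figure D3:**
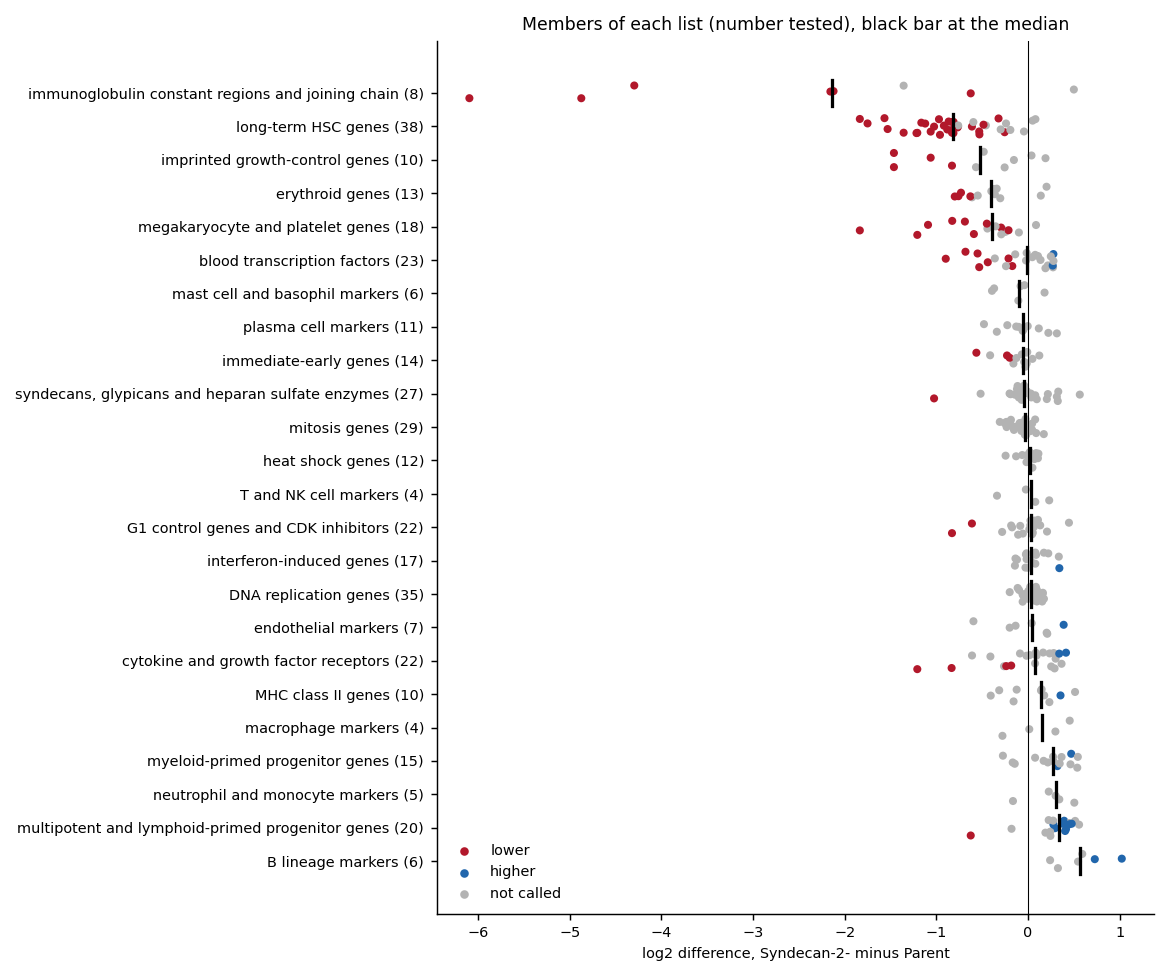
Each point is a tested member of a gene list (rows, with the number tested), placed by its log2 difference, Syndecan-2- minus Parent, on the x axis; red members fell, blue members rose, grey members were not called, and black bars are medians. Stem cell genes centre on -0.82 and genes of multipotent and lymphoid-primed progenitors on 0.34, while DNA replication and mitosis genes lie close to 0.

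Other lists gave few calls, while 3.11% of all genes fell and 1.24% rose. Among 27 tested syndecans, glypicans and heparan sulfate enzymes Sdc2 fell and no other member was called. In all, 7 of the 27 had an unadjusted p under 0.05, against 2281 of all 13997 genes. Sdc1, Sdc3 and Sdc4 averaged 17.8, 9.18 and 10.3 CPM in Syndecan-2- libraries, against 14.1, 7.13 and 8.06 CPM in Parent libraries. Of 10 MHC class II genes H2-Ob rose (129% of Parent), with an adjusted p of 0.0765 to 0.193 without any 1 of the Syndecan-2- libraries or Parent replicate 1 or 3. Of 17 interferon-induced genes Gbp3 rose (128%), with 0.0853 to 0.242 without Syndecan-2- replicate 1 or 3 or Parent replicate 2 or 3. Of 14 immediate-early genes Egr1, Egr3 and Nr4a1 fell to 85.4%, 72.9% and 87.9% with overlapping values, and each call was lost without the replicate pairing (adjusted p = 0.342, 0.462 and 0.701). Egr1 was also lost without replicate 1 or 3 of either population (0.0762 to 0.153), Egr3 without Syndecan-2- replicate 2 or Parent replicate 2 or 3 (0.0679 to 0.318), and Nr4a1 without Syndecan-2- replicate 2 or 3 or any Parent library (0.0734 to 0.304).

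Heat shock genes showed a difference between replicate numbers rather than populations. Hspa1a was at 180, 2837 and 33.6 CPM in Syndecan-2- libraries and 356, 1844 and 34.5 CPM in Parent libraries, with replicate 2 highest in both. None of the 12 members was called by limma, and 0 had an unadjusted p under 0.05, against 2281 of all 13997 genes. Few markers of other cells were called. Limma called 0 of 4 T and NK cell markers, 0 of 5 neutrophil and monocyte markers, 0 of 4 macrophage markers, 0 of 6 mast cell and basophil markers and 0 of 2 stromal markers, with 0, 2, 1, 1 and 1 at an unadjusted p under 0.05. The summed level of the neutrophil and monocyte markers was 91.8 to 98.8 CPM in Syndecan-2- and 76.7 to 91.2 CPM in Parent libraries. Of 7 endothelial markers Egfl7 rose, while 1.24% of all genes rose. S100a8, a defining gene of neutrophils, was listed at 0 in all Syndecan-2- libraries and reached 0.324 CPM in Parent libraries.

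The Syndecan-2+ fraction gives the complement, with the same 3 Parent libraries in both differences. Against Parent, 1448 genes rose (10.3%) and 1539 fell (11%) in Syndecan-2+. Vwf was at -1.84 in Syndecan-2- and 1.76 in Syndecan-2+ on the log2 scale, each minus Parent, and Mecom at -0.96 and 1.21. Flt3 was at 0.41 in Syndecan-2- and -3.46 in Syndecan-2+, and Emp1 at 0.68 and -2.78. The contrast Syndecan-2- plus Syndecan-2+ minus 2 times Parent asks whether the steps from Parent are of equal size, and it departed from 0 for 344 genes (2.46%), 299 (2.14%) below and 45 (0.321%) above. It was -3.04 for Flt3 (adjusted p = 2.73e-11), -4.01 for Igkc (1.80e-07) and -0.07 for Vwf (0.894). Without Parent replicate 3 the count was 167 and without Parent replicate 2 it was 224. Where a mixture lies between 2 logs depends on the share of cells from each fraction, which the labels do not give.

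On the linear scale, Parent lay 23% of the way from Syndecan-2- to Syndecan-2+ for Vwf, 27.0% for Mecom, 27.9% for Satb1 and 26.7% for Flt3. Over the 59 named genes with a fold of at least 2 between the fractions, the median was 29.6%, with a range of 14.4% (Iglc3) to 85.1% (Iglc2). Many of these genes were named for their difference between Syndecan-2- and Parent, so that the values are a description. Iglc2 was highest in a single Parent library, at 8.48 CPM in replicate 3.

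**Figure D4:**
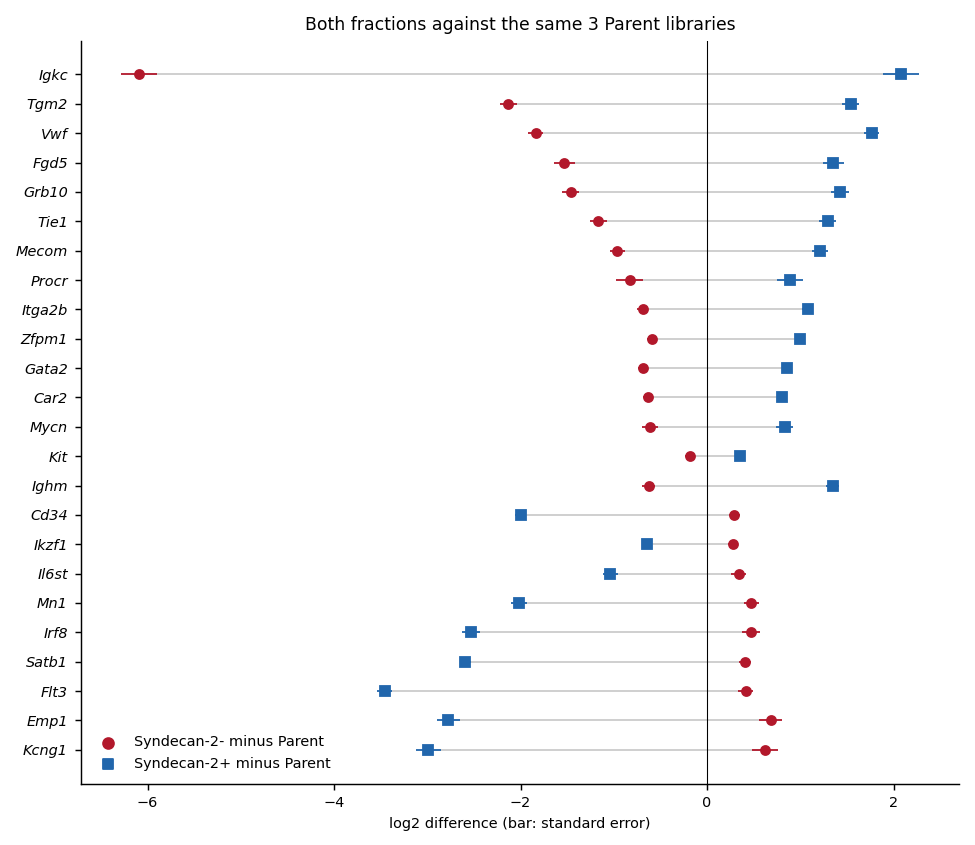
Log2 differences from Parent (x axis, bars are standard errors) of 24 genes in the Syndecan-2- fraction (red circles) and the Syndecan-2+ fraction (blue squares), with the same Parent libraries in both. Vwf sits at -1.84 and 1.76, whereas Flt3 sits at 0.41 and -3.46.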

How the data were processed

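The authors deposited 1 table of CPM values per transcript for 9 libraries, with 58094 transcripts and 20635 gene symbols, per the file headers. The submitters' processing notes name STAR, Bowtie2 and GRCm38, with no versions or roles, while the counting program, its strand setting and its filters are not stated. Summed over listed transcripts, CPM reach 51.5 to 54.1% of the common library total in the 6 libraries compared. An offset of 0.0001 was subtracted, values were summed per symbol (20 symbols are written as dates and kept so), and genes with at least 1 CPM in 3 of 9 libraries were tested. CPM were rescaled by TMM (trims 0.3 and 0.05) and fitted as log2 of CPM plus 1 with limma 3.58.1 in R 4.3.3 (eBayes with trend), with population and replicate number as terms over all 9 libraries, so that Syndecan-2+ libraries share in the estimate of spread. The rule of the comparison set the pairing by replicate number. Deviations from population means correlated at 0.115 to 0.259 for same-numbered libraries (9 pairs) and at -0.205 to 0.00804 for others. The deviations of a gene cancel out within each population, so positive values for same-numbered libraries push the others down, and the contrast is partly built in. The code was tested on simulated data. The rule for genes named took Sdc2, 12 rises and 12 falls of largest size with 1 sign in all pairs (no model names or V, D and J genes), up to 8 called members or the 4 with the smallest p of each list, and 17 fixed genes; not all are printed, and other called genes were chosen after their values were seen. Members and lists were chosen with earlier results of these data known. Python 3.11.15 and matplotlib 3.10.9 drew the figures. Values of a few genes are not reported here.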

Additional observations from a re-analysis of the deposited data

How the results depend on the processing

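No call of a fall turned into a rise or the reverse in any setting. Without the replicate block, 264 genes fell, 48 rose and 186 were off the midpoint, all of the 264 and 48 among those of the paired fit. Without the block and on CPM as deposited, 356 fell, 17 rose and 190 were off the midpoint. Without the trend the counts were 217, 28 and 74. On CPM as deposited 72 rose, with quantile normalization 390 fell and 119 rose, and at a BH threshold of 0.1, 314 rose and 517 were off the midpoint. With transcripts in place of genes, limma called 33 lower, 0 higher and 30 off the midpoint, with 2688 at an unadjusted p under 0.05. With 1 library left out, 291 to 431 genes fell, 48 to 202 rose and 167 to 348 were off the midpoint. With replicate 1, 2 or 3 of all populations left out, alternatives chosen after seeing the data, 276, 306 and 254 fell, 87, 97 and 75 rose, and 257, 271 and 194 were off the midpoint. The Sdc2 difference stayed between -1.57 and -1.29 CPM. Of 63 called genes that the rule named, 24 kept their call in all 24 settings, 3 more (Evc2, Meg3 and Ndn) kept it in the 23 that tested them, 20 lost it without the replicate block and 31 without the trend. Mki67 changed sign around 0 in 7 settings, at 0.0018, 0.00041, 0.086, 0.010, 0.018, 0.070 and 0.0081, against -0.0020, and lay between -0.093 and 0.086 with 1 library left out. The causes were not tested. Depth limits genes near 0.152 to 0.194 CPM, and 3 libraries against 3 limit the exact test to p = 0.1.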
